A study of Arabidopsis thaliana with 12 samples.

Results

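The 5 genes described here, AT1G53540, AT2G29500, AT1G54050, AT5G51440 and AT5G37670, encode small heat shock proteins of Arabidopsis. They were chosen by name from a list of stress genes, with their H2O2 responses on these arrays already known. They are 5 of 13286 genes that have a probe set paired with exactly 1 gene. Each had 1 probe set on the array.

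The study compared transcript levels of 5 day old Columbia seedlings grown in liquid MS medium, on 12 Affymetrix ATH1 arrays of total RNA. Wildtype seedlings were either untreated or given 20 mM H2O2 for 1 hour. The second genotype, called Zat12, was also in the Columbia background and expressed the zinc finger protein Zat12 constitutively from the 35S-CaMV promoter, and it was likewise untreated or given 20 mM H2O2 for 1 hour. Each of the 4 groups had 3 arrays. The labels give neither the number of independent Zat12 lines nor whether replicates came from separate cultures, so the p-values rest on array-to-array spread that may be technical in origin. No probe set is paired with Zat12 itself in the annotation used, so its level was not analysed here.

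Small heat shock proteins are ATP-independent chaperones with a conserved alpha-crystallin domain. They form oligomers that bind proteins as these unfold and hold them until Hsp70 and its partners refold them. Plants have an unusually large family of them, with members directed to the cytosol, the nucleus, mitochondria, plastids, the endoplasmic reticulum and peroxisomes, and most are nearly silent in unstressed vegetative tissue and induced by heat and by other protein-damaging stresses. AT1G53540 and AT2G29500 encode cytosolic proteins of class I, AT1G54050 encodes a class III protein of the cytosol and nucleus, AT5G51440 a mitochondrial protein and AT5G37670 a peroxisomal protein. Zat12 is a transcriptional regulator known for its role in oxidative and abiotic stress responses.

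The deposited values are MAS5 signals, a linear measure of probe set brightness, and the arrays had been scaled to a common level: the mean signal with 2% of values trimmed at each end lay between 100.01 and 100.1, and the median between 40.7 and 44.9. Zat12 untreated replicate 2 had 6408 empty cells, 28.1% of its values, and the other 11 arrays had none. AT1G53540 and AT1G54050 had no value on that array, so their untreated Zat12 means rest on 2 arrays. The RNA of whole seedlings was measured. RCA, the Rubisco activase of green tissue and the only measured gene of 11 listed for shoots, had signals of 5871 to 7603 on every array. The 4 measured root genes of 9 listed had a lowest signal of 31.6 over the arrays with a value. No detection calls were used, so whether a gene was detected was not tested. Signals of different probe sets cannot be set against each other, so levels below are compared within a gene only.

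In wildtype, H2O2 went with higher transcript levels of all 5 genes, to signals well above the array median. Untreated wildtype means were low for 4 of them, below a signal of 28.1. That of AT1G54050, 54.5, was already above the array medians of 40.7 to 44.9. On every treated array each gene was above its highest untreated value. The same held in Zat12. Since the genes were known from this response, it is given as a description with no test, and in bulk RNA more responding cells cannot be told apart from more transcript per cell.

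AT1G53540, one of the class I genes, had signals of 4.09, 12.5 and 14.5 in untreated wildtype (replicates 1 to 3) and of 443, 351 and 399 in wildtype under H2O2. In Zat12 it had 14.2 and 12.8 on the untreated arrays with a value and 847, 496 and 832 under H2O2. Untreated arrays of both genotypes lay in the same low range, and each treated Zat12 array was above each treated wildtype array. Wildtype means were 10.3 ± 5.50 (SD, n = 3) untreated and 398 ± 46.4 (SD, n = 3) treated, a ratio of 38.5. Zat12 means were 13.5 ± 1.05 (SD, n = 2) and 725 ± 199 (SD, n = 3), a ratio of 53.7. Of the treated Zat12 arrays, replicate 2 was clearly the lowest for this gene.

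AT2G29500, the other class I gene, had signals of 15.4, 17.8 and 26.5 in untreated wildtype and of 391, 338 and 373 under H2O2. In Zat12 they were 17.4, 14.3 and 26.7 untreated and 714, 501 and 824 under H2O2. The untreated groups overlapped almost fully, while the treated groups were apart. The mean went from 19.9 ± 5.84 to 368 ± 27.2 in wildtype and from 19.5 ± 6.45 to 680 ± 164 in Zat12 (SD, n = 3 each), ratios of 18.5 and 34.9. Here too Zat12 H2O2 replicate 2 was the lowest of its group. Whether the probes of either class I gene also bind transcripts of related class I genes was not tested.

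AT1G54050, the class III gene, was the only one of the 5 with untreated means above the signal of 28.1 that was required of a probe set's mean over all arrays for testing. It had signals of 56.3, 60.1 and 47.2 in untreated wildtype and of 484, 576 and 631 under H2O2. In Zat12 they were 46.0 and 48.2 untreated and 768, 829 and 1055 under H2O2. The untreated genotypes overlapped, and the lowest treated Zat12 array was 1.22 times the highest treated wildtype array. Means were 54.5 ± 6.66 and 564 ± 74.3 in wildtype (SD, n = 3 each), a ratio of 10.3. In Zat12 they were 47.1 ± 1.55 (SD, n = 2) and 884 ± 151 (SD, n = 3), a ratio of 18.8.

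AT5G51440, which encodes the mitochondrial protein, had signals of 3.95, 10.8 and 17.8 in untreated wildtype and of 232, 202 and 226 under H2O2. In Zat12 they were 3.54, 7.48 and 2.47 untreated and 325, 317 and 399.9 under H2O2. Relative to their mean, untreated signals differed more between replicates than for any other of the 5 genes, and the treated groups were tight and apart. The mean went from 10.8 ± 6.90 to 220 ± 15.8 in wildtype and from 4.49 ± 2.64 to 347 ± 45.7 in Zat12 (SD, n = 3 each). The ratios, 20.3 and 77.3, rest on untreated signals close to the bottom of the array's scale.

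AT5G37670, which encodes the peroxisomal protein, had signals of 11.4, 12.1 and 14.9 in untreated wildtype and of 153, 157 and 141 under H2O2. In Zat12 they were 18.4, 22.9 and 27.8 untreated and 241, 219 and 237 under H2O2. It was the only one of the 5 genes for which the genotypes were apart both without and with H2O2. Means were 12.8 ± 1.84 and 151 ± 8.48 in wildtype and 23.1 ± 4.69 and 232 ± 11.5 in Zat12 (SD, n = 3 each). The treated over untreated ratio was 11.7 in wildtype and 10.1 in Zat12.

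**Figure D1:**
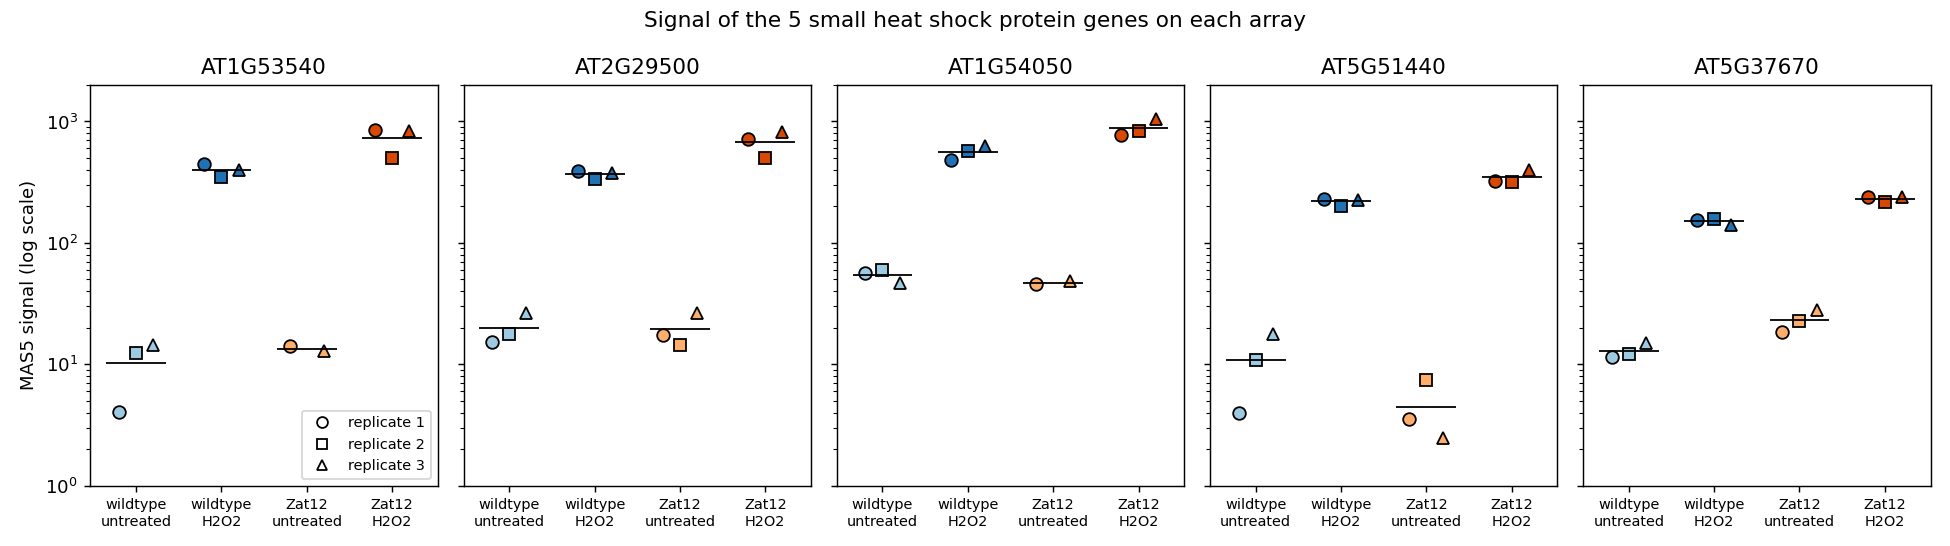
MAS5 signal (log axis) of each of the 5 genes on every array; each symbol is 1 array, its shape the replicate number, and the horizontal line is the group mean. Treated arrays lie above all untreated arrays for every gene, and treated Zat12 arrays (dark orange) lie above treated wildtype arrays (dark blue) for every gene; AT1G53540 and AT1G54050 have 2 untreated Zat12 arrays.

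On the log2(signal + 3) scale of the fits, the H2O2 difference in wildtype was 5.01 (SE 0.27) for AT1G53540, 4.14 (SE 0.30) for AT5G51440, 4.05 (SE 0.21) for AT2G29500, 3.30 (SE 0.14) for AT1G54050 and 3.28 (SE 0.15) for AT5G37670. In Zat12 it was 5.59 (SE 0.30) for AT5G51440, 5.42 (SE 0.30) for AT1G53540, 4.93 (SE 0.21) for AT2G29500, 4.13 (SE 0.16) for AT1G54050 and 3.19 (SE 0.15) for AT5G37670. In Zat12 the peroxisomal gene was last by more than the SEs. In wildtype it differed from AT1G54050 by less than the SE, and with no offset the order of these genes turned, at 3.56 for AT5G37670 and 3.37 for AT1G54050. The median of the 5 differences was 4.05 in wildtype and 4.93 in Zat12, against -0.07 and -0.09 over all 13647 tested probe sets. Of those probe sets, 9.59% were called higher and 12.4% lower under H2O2 in wildtype, and 8.16% and 9.12% in Zat12, at a Benjamini-Hochberg adjusted p below 0.05 in limma, and 14.6% and 13.9% had treated arrays all above the untreated ones. All 5 genes passed the signal filter, 4 of them only through their treated arrays, since their untreated means were below 28.1 in each genotype.

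The size of these differences depends on the offset of 3 added before taking logs, because the untreated signals are low. In Zat12 AT5G51440 moved most, from 6.42 with no offset to 4.45 with an offset of 12. In wildtype it moved from 4.59 to 3.39 and AT1G53540 from 5.45 to 4.22. AT1G54050, with the highest untreated signals relative to the offset, had 4.22 and 3.91 in Zat12.

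**Figure D2:**
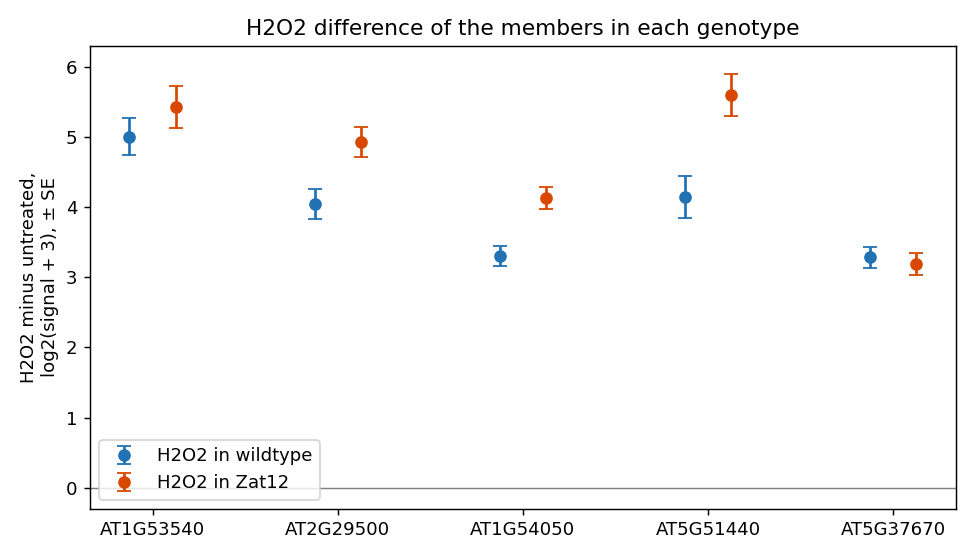
H2O2 minus untreated for each gene on the log2(signal + 3) scale, in wildtype (blue) and Zat12 (orange); points are limma estimates and bars 1 SE. All lie above 3, and the Zat12 point is the higher one for 4 genes, AT5G37670 being the exception.

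Other measures differed between the groups too. The 25S ribosomal RNA control probe set had a mean signal of 71.4 ± 48.1 in untreated wildtype, 232 ± 92.3 in treated wildtype, 173 ± 92.3 in untreated Zat12 and 227 ± 81.9 in treated Zat12 (SD, n = 3 each). In Zat12 the 25S signals overlapped, at 96.3 to 275 untreated and 133 to 286 treated. In wildtype they did not, at 32.9 to 125.3 untreated and 125.7 to 295 treated. With the log2 signal of 25S as a covariate, the median H2O2 difference of the 5 genes was 3.71 in wildtype, against 4.05 without it. The 3.71 was that of AT1G54050, which moved up from 3.30, whereas the 4.05 was that of AT2G29500. The 5 genes thus did not all move down. The summed signal of the 4 measured root genes was 695 to 864 in untreated wildtype and 232 to 332 in treated wildtype, and 782 to 1006 (2 complete arrays) and 177 to 264 in Zat12. Of the 4 root genes, 3 were called lower under H2O2 in wildtype and 4 in Zat12, and none had a difference above 0 in either. Over all tested probe sets 12.4% and 9.12% were called lower. The part of the 25S signal and of the root genes in the higher levels of the 5 genes was not tested.

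Without H2O2, the comparison of Zat12 with wildtype asks whether the over-expression alone goes with other levels of these genes. AT5G37670 was higher in Zat12, by 0.71 on the log2 scale (SE 0.15, 95% interval 0.39 to 1.03, adjusted p 0.0298 in limma). All 3 Zat12 arrays were above all 3 wildtype arrays, which held for 9.59% of all tested probe sets. With untreated means of 12.8 and 23.1, AT5G37670 passed the filter of 28.1 only through its treated arrays. With no filter it was not called (adjusted p 0.0853 in limma). The other 4 genes were not called. Over all tested probe sets, 0.725% were called higher and 0.498% lower.

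Of the 4 not called, AT5G51440 had the largest estimate, a difference of -0.80 (95% interval -1.43 to -0.17, adjusted p 0.252 in limma). Its Zat12 arrays overlapped those of wildtype through wildtype replicate 1, at a signal of 3.95. Without that array the difference was -1.23 with an adjusted p of 0.0268 in limma. Dropping the array behind the overlap sets the groups apart, so that value is no support for a difference. AT5G51440 was called in only 1 of 20 other fits. It passed the filter only through its treated arrays, and its untreated Zat12 signals of 2.47 to 7.48 lay near the offset of 3. AT1G53540 had 0.41 (95% interval -0.22 to 1.04), AT2G29500 -0.03 (95% interval -0.48 to 0.41) and AT1G54050 -0.19 (95% interval -0.53 to 0.14), with limma's adjusted p at 0.664, 0.974 and 0.709. The upper bound for AT1G53540 lies above the estimate for AT5G37670, so a difference of that size is not excluded for it.

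The call for AT5G37670 rests on low signals and did not hold throughout. Its untreated means were below 28.1 in both genotypes, so it entered the test through its treated arrays, and with the filter applied to the untreated arrays alone it was not tested. With no filter its adjusted p in limma was 0.0853. With an offset of 12 its difference was 0.49 and its adjusted p 0.0641, and a fit that also held the 25S signal gave 0.66 and 0.183. Its adjusted p in limma was 0.119 without wildtype untreated replicate 1, 0.0664 without wildtype untreated replicate 2, 0.098 without Zat12 untreated replicate 2, 0.114 without Zat12 untreated replicate 3, and 0.0504 without either Zat12 H2O2 replicate 2 or Zat12 H2O2 replicate 3.

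Under H2O2, all 5 genes had higher signals in Zat12 than in wildtype, on 3 of 3 arrays against 3 of 3. The mean signals were 1.54 to 1.85 times those of wildtype. The 2 cytosolic class I genes had the largest ratios, 1.85 for AT2G29500 and 1.82 for AT1G53540, followed by 1.58 for AT5G51440, 1.57 for AT1G54050 and 1.54 for AT5G37670. The gap between the lowest Zat12 and the highest wildtype array was a ratio of 1.39 for AT5G37670, 1.37 for AT5G51440, 1.28 for AT2G29500, 1.22 for AT1G54050 and 1.12 for AT1G53540. Over all tested probe sets, 11.2% had Zat12 arrays all above wildtype arrays under H2O2, and 48.2% had a difference above 0.

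The test called 3 of the 5 higher, against 1.52% of all tested probe sets called higher and 1.4% called lower. AT1G54050 differed by 0.64 (SE 0.14, 95% interval 0.34 to 0.94, adjusted p 0.0234), AT2G29500 by 0.85 (SE 0.21, 95% interval 0.41 to 1.30, adjusted p 0.036) and AT5G37670 by 0.61 (SE 0.15, 95% interval 0.29 to 0.94, adjusted p 0.0378), all in limma. AT1G53540 differed by 0.83 with a wider error (SE 0.27, 95% interval 0.26 to 1.39, adjusted p 0.111 in limma), and AT5G51440 by 0.65 (SE 0.30, 95% interval 0.015 to 1.28, adjusted p 0.284 in limma). The estimates of the called and the not called genes covered the same span, and the spread pooled over all groups differed. The within-group SD on the log2 scale, pooled over the 4 groups, was 0.16 for AT5G37670, 0.19 for AT1G54050 and 0.33 for AT2G29500, against 0.45 for AT1G53540 and 0.48 for AT5G51440. That SD includes the untreated arrays, which are not part of this comparison. For AT5G51440 deviations from the group mean ran from -0.86 to 0.72 on untreated wildtype arrays and from -0.12 to 0.21 on treated arrays. The median difference of the 5 was 0.65, against -0.01 over all tested probe sets.

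These calls lie close to the threshold. When only the treated groups were fitted all 5 were called, and all 5 were called there with the replicate number as a block too (adjusted p 0.0015 to 0.0056 in limma), a fit that called 544 of 13647 probe sets higher. In the fit of all groups, with no offset, with no filter on low signals or with no mean-variance trend 1 was called. None was called without wildtype H2O2 replicate 1, without wildtype H2O2 replicate 2 or without Zat12 H2O2 replicate 3, and 1 was called without wildtype H2O2 replicate 3 or Zat12 H2O2 replicate 1. With each of the 6 treated arrays left out in turn, the difference lay between 0.69 and 1.08 for AT1G53540, 0.70 and 1.06 for AT2G29500, 0.51 and 0.74 for AT1G54050, 0.54 and 0.71 for AT5G51440 and 0.57 and 0.65 for AT5G37670. In these 6 fits AT1G54050 kept its call in 3, AT2G29500 in 1 and AT5G37670 in 0. The adjusted p of AT5G37670 was 0.0771 to 0.143 in limma.

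The interaction asks whether the H2O2 difference itself depends on the genotype. For 4 of the 5 genes the estimate was above 0, meaning a larger H2O2 difference in Zat12. The estimates were 1.45 for AT5G51440 (95% interval 0.56 to 2.34, adjusted p 0.365 in limma), 0.89 for AT2G29500 (95% interval 0.26 to 1.52, adjusted p 0.491 in limma), 0.83 for AT1G54050 (95% interval 0.38 to 1.28, adjusted p 0.24 in limma) and 0.42 for AT1G53540 (95% interval -0.43 to 1.27, adjusted p 0.852 in limma). For AT5G37670, which was higher in Zat12 with and without H2O2, it was -0.10 (95% interval -0.55 to 0.36, adjusted p 0.944 in limma). None of the 5 was called by limma. The interaction compares H2O2 differences that were known when the genes were chosen, so the estimates are a description. Over all tested probe sets, 48.2% had an estimate above 0, and 0% were called with a higher and 0.11% with a lower H2O2 difference in Zat12. Without wildtype untreated replicate 1, AT5G51440 was called, with 1.88 and an adjusted p of 0.0424 in limma. Its estimate includes the untreated difference of -0.80, on Zat12 signals of 2.47 to 7.48 that are near the offset of 3. With all arrays kept, it was 1.06 to 1.83 over the other settings. The untreated means of 4 of the 5 genes were below 28.1 in each genotype, so low signals enter these estimates.

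The 5 genes did not vary together on every array. Zat12 H2O2 replicate 2 was the lowest of its group for 4 of them, AT1G54050 being the exception, and the class I genes were furthest below their group mean there, AT1G53540 at -0.50 and AT2G29500 at -0.41 on the log2 scale. Wildtype untreated replicate 1 was the lowest of its group for 4, and wildtype untreated replicate 3 the highest for 4, AT1G54050 being the lowest there. In treated wildtype no array was lowest for more than 3.

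**Figure D3:**
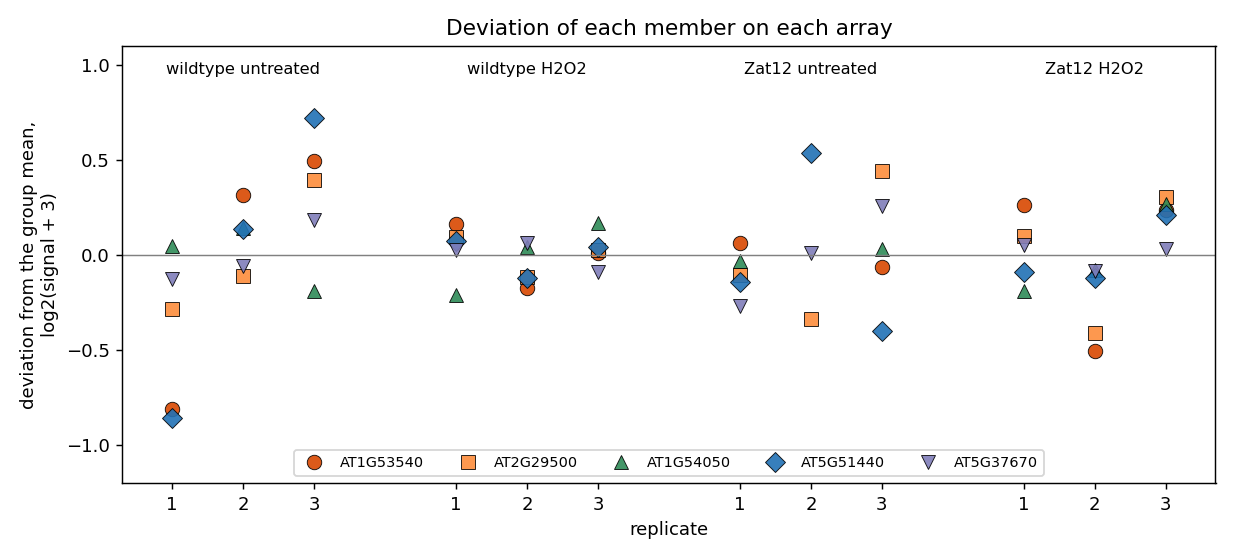
Deviation of each gene from its group mean on each array, on the log2(signal + 3) scale, with arrays grouped by condition and numbered by replicate. The largest deviations are those of AT1G53540 and AT5G51440 in untreated wildtype, where signals are low, and AT1G53540 and AT2G29500 are lowest together in Zat12 H2O2 replicate 2.

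Other small heat shock protein genes gave a mixed picture. Of 14 listed, 6 had a probe set of 1 gene and 3 were tested. ATHSP22.0 (AT4G10250), which encodes a protein of the endoplasmic reticulum, rose from 19.4, 40.1 and 34.3 to 129, 138 and 146 in wildtype, by 2.09 on the log2 scale (SE 0.23, adjusted p 1.9e-06 in limma), and by 2.00 (SE 0.23, adjusted p 3.5e-06 in limma) in Zat12. Its treated Zat12 signals of 167, 110 and 172 overlapped those of wildtype, with a difference of 0.09 (95% interval -0.39 to 0.57, adjusted p 0.891 in limma). AT2G19310 rose by 0.73 in wildtype (adjusted p 0.0026 in limma) and by 1.30 in Zat12 (adjusted p 7.4e-06 in limma). Under H2O2 its Zat12 signals of 239, 255 and 301 were above wildtype signals of 163, 173 and 181, a difference of 0.61 (adjusted p 0.0456 in limma, and 0.0771 to 0.195 with 1 treated array left out). AT4G21870 was not called in any comparison. In wildtype its treated signals of 517, 588 and 583 were all below the untreated 633, 821 and 603. That difference was -0.27 (adjusted p 0.161 in limma). In Zat12 its groups overlapped, at 548 to 731 treated and 585 to 720 untreated.

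The other 3 measured genes of that list were below the filter and had no test. AT1G52560, a mitochondrial family member, had signals of 1.40, 17.0 and 0.995 in untreated wildtype, 26.5, 27.4 and 36.4 in treated wildtype, 2.14, 1.15 and 1.12 in untreated Zat12, and 50.8, 34.9 and 55.5 in treated Zat12. Its treated arrays were thus above its untreated arrays in both genotypes, all at low signal. AT5G54660 stayed between 12.2 and 35.2 and AT5G47600 between 2.74 and 31.0, with groups that overlapped.

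The proteins that small heat shock proteins hand their clients to were covered in part. Of 22 listed Hsp70, Hsp90 and Hsp100 genes 2 had a probe set of 1 gene. AT3G09440, a cytosolic Hsp70, rose by 1.22 in wildtype (SE 0.14, adjusted p 4.5e-06 in limma) and by 1.14 in Zat12 (SE 0.15, adjusted p 3.4e-05 in limma), and Hsp70-2 by 0.42 (adjusted p 0.0216 in limma) and 0.66 (adjusted p 0.001 in limma). In the fit with the 25S signal Hsp70-2 was no longer called in wildtype. Under H2O2 Hsp70-2 was higher in Zat12 by 0.54 (adjusted p 0.0281 in limma, and 0.0512 to 0.11 with 1 treated array left out), and AT3G09440 had a difference of 0.50 (adjusted p 0.0577 in limma). None of 21 listed heat shock factors and none of 6 chaperonins had a probe set of 1 gene, so the transcription factors that drive these genes under heat were not analysed here.

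Of 17 listed co-chaperones of the heat response 10 were tested. Under H2O2 6 were called higher in wildtype and 7 in Zat12, and none was called lower in either. Over all tested probe sets 9.59% and 8.16% were called higher. The difference was above 0 for 9 of the 10 in wildtype and for 8 in Zat12. The 3 with the largest difference in wildtype were AT5G48570, an FKBP-type prolyl isomerase, with 3.26 in wildtype and 3.97 in Zat12 (SE 0.24 each), Fes1A, a partner of cytosolic Hsp70, with 2.73 and 3.08 (SE 0.14 each), and SGT1A, a co-chaperone of Hsp90, with 2.39 in both (SE 0.12 each). Between genotypes under H2O2 4 were called higher in Zat12. They were Hop3, which links Hsp70 to Hsp90, by 0.92 (adjusted p 0.0072 in limma), the J-domain gene AT2G20560 by 0.79 (adjusted p 0.0168 in limma), Fes1A by 0.61 (adjusted p 0.0247 in limma) and Hop2 by 0.41 (adjusted p 0.049 in limma). Hop3 was not called without Zat12 H2O2 replicate 3 (adjusted p 0.0521 in limma), and the other 3 lost the call without each of at least 4 of the 6 treated arrays. Fes1A had signals of 436, 420 and 449 in treated wildtype and of 799, 527 and 698 in treated Zat12, with replicate 2 again the lowest.

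Over the 15 tested genes of the other chaperone lists, none was called higher or lower between untreated genotypes in limma. Over all tested probe sets 0.725% were called higher and 0.498% lower there. Of the 15 untreated differences 12 were above 0, with a median of 0.14. Under H2O2 6 were called higher in Zat12, with 14 of 15 differences above 0 and a median of 0.41. This compares with 1.52% called and 48.2% above 0 over all tested probe sets. The count of 6 was 9 in the fit of the treated groups with the replicate number as a block, 2 with no mean-variance trend, 4 with median centring, and 0 to 3 with a treated array left out, being 0 without Zat12 H2O2 replicate 3. For the 2 genotypes the H2O2 differences share no arrays, but each shares its treated arrays with the genotype comparison under H2O2.

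**Figure D4:**
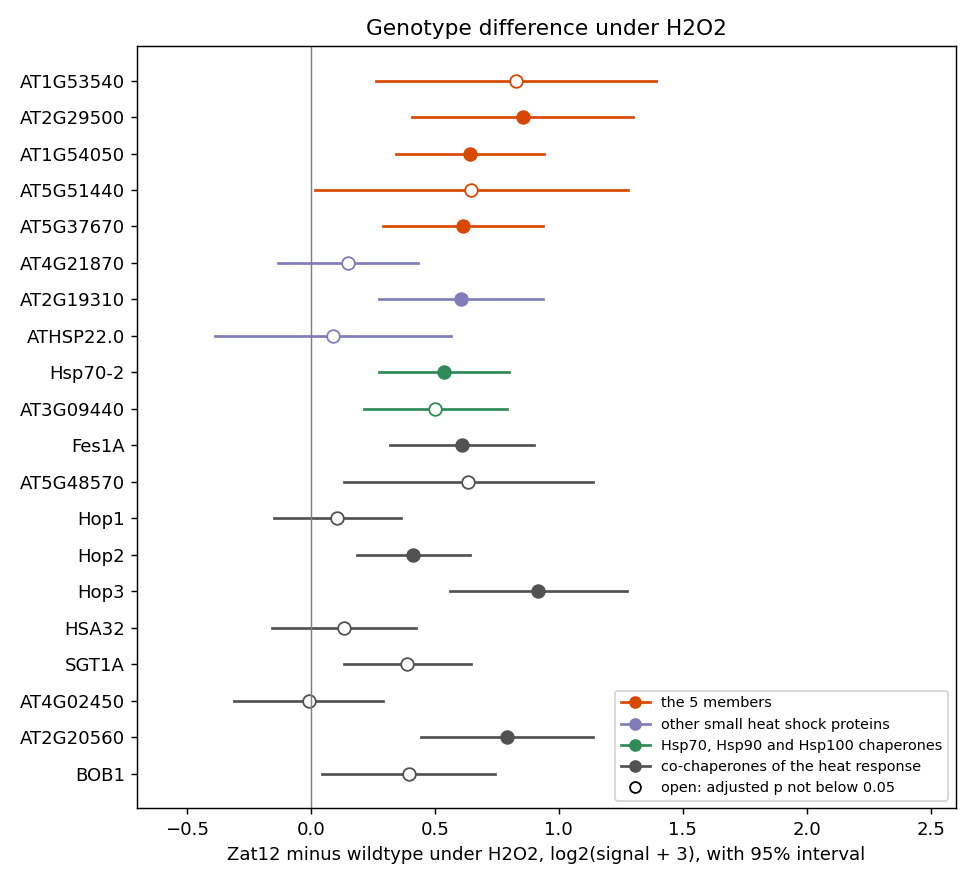
Zat12 minus wildtype under H2O2 on the log2(signal + 3) scale for the 5 genes (orange) and the 15 tested genes of the other chaperone lists, with 95% intervals from limma; filled points have an adjusted p below 0.05. The 5 genes lie between 0.61 and 0.85, and of the other small heat shock proteins AT2G19310 is at 0.61 and ATHSP22.0 and AT4G21870 are nearer to 0.

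Tissue markers and the RNA control were compared in the same groups. LEA18, the only measured gene of 11 listed for seed maturation, had signals of 47.1 to 121.7 in treated wildtype and of 294 to 321 in treated Zat12, and 69.6 to 148 and 238 to 271 (2 arrays) without treatment. Under H2O2, 1 of the 4 root genes was called lower in Zat12, against 1.4% of all tested probe sets, and none had a difference above 0. The summed signal of the 4 was 232 to 332 in treated wildtype and 177 to 264 in treated Zat12. The 25S control had overlapping signals in the treated groups, 126 to 295 in wildtype and 133 to 286 in Zat12. With it as a covariate 3 of the 5 genes were called, and the part of LEA18 and of the root genes was not tested.

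The tested probe sets of other single genes whose profile over the arrays was most like the mean profile of the 5 were AT1G19020, AT1G05575, AT5G35735, GSTU25 (a tau class glutathione transferase) and AR781. Likeness was the root mean square difference of centred log2 values over 12 arrays, or 11 for AT5G35735. It was 0.33, 0.34, 0.37, 0.42 and 0.46 in that order, against a median of 2.22 over 7355 candidates and 0.25 (AT2G29500) to 0.60 (AT5G37670) for the 5 genes themselves. None of these is a chaperone of the lists. AT1G19020 had mean signals of 47.7 and 567 in wildtype and of 55.3 and 953 in Zat12, and AT1G05575 39.3 and 499.6 in wildtype and 36.0 and 836 in Zat12. Both were thus higher in treated Zat12 than in treated wildtype, while GSTU25 had 349 and 367 in the treated groups. In treated wildtype and treated Zat12, AT5G35735 had 1410 and 1791, and AR781 had 695 and 641, the lower value in Zat12. These genes were chosen for the likeness, so their levels are a description.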

How the data were processed

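ATH1 arrays of 4 groups of 3 were used. The deposited table holds an intensity per probe set, the linear signal of MAS5 per the submitters' processing notes, whose version is not given in the sources used here. Of 22810 probe sets, 64 controls were left out of the tests. Genes come from the platform annotation, which pairs 13513 probe sets with 1 gene, and 13436 of these were found in RefSeq's genes (TAIR10.1). Empty cells stayed empty.

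Signals became log2(signal + 3), 3 being their 10th percentile, which understates changes of low signals. The 13647 probe sets with a mean above the 40th percentile (4.96, a signal of 28.1) were fitted with limma 3.58.1 in R 4.3.3, with a mean-variance trend, and p-values were Benjamini-Hochberg adjusted over all 13647. The same fit over all 12 arrays gave every contrast. Python 3.11.15, pandas 2.3.3 and matplotlib 3.10.9 did the rest. The code was tested on simulated data. The alternatives were other offsets, filters and scalings, no trend, fits of the compared groups, a replicate block, each array left out, and a covariate for 25S ribosomal RNA, the last chosen after seeing the data.

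The members and gene lists were chosen with earlier results of these data known. Named genes are the members, all other small heat shock proteins with a probe set, the 3 of each other list with the largest H2O2 difference in wildtype, those whose call between genotypes is counted, and the 5 nearest profiles. The replicate numbers, which the labels do not tie to a shared batch, were checked as pairs by correlating deviations from the group means. Same-numbered treated arrays of the 2 genotypes deviated together (0.123 to 0.141 over 3 pairs, against -0.086 to -0.043 over 6 pairs of unlike number), so this comparison was also fitted with the number as a block, which was added after seeing the data. The untreated genotypes gave -0.254 to -0.030 and the untreated and treated groups of wildtype -0.064 to 0.101, and were not taken as paired. The untreated and treated groups of Zat12 gave 0.090 to 0.229, against -0.133 to 0.029 for unlike numbers, so these arrays deviated together too. The H2O2 comparison in Zat12 had no paired fit of its own, only the replicate block on all groups. Deviations within a group cancel out, so the values of like and unlike numbers are not independent of each other. No sequence of these genes was used here.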

Additional observations from a re-analysis of the deposited data

How the results depend on the processing

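Over 23 settings besides the one reported, 12 of them leaving out 1 array, 1098 of 1239 comparisons kept their direction and side of the threshold or, where untested, moved by less than the SD between replicates, or, for counts, stayed within 1.5 times. Of the others, 106 lost calls, 11 gained them, 7 turned sign and 17 untested values moved further. With an offset of 12 the median H2O2 difference of the 5 genes was 3.39 in wildtype and 4.45 in Zat12, and a fit with the 25S signal gave 3.71 in wildtype. With 1 array left out it was 3.72 to 4.24 in wildtype and 4.76 to 5.15 in Zat12. Between untreated genotypes, 0 of the 5 genes were called with an offset of 12, no filter, a filter at the 60th percentile, only the compared groups, or the 25S covariate, and 0 to 1 with 1 array left out. The filter at the 60th percentile and the fit of the compared groups left AT5G37670 untested there, while for the others the cause was not tested. Under H2O2, 1 was called with no offset, no filter or no trend, 5 with only the compared groups, 5 with only those and a replicate block, and 0 to 4 with 1 array left out, which itself leaves fewer samples; the count of the interaction was 0 to 1. AT2G29500 turned its sign between untreated genotypes with the 25S covariate (0.082) and ranged from -0.25 to 0.16 with 1 array left out, AT1G54050 did so with the 25S covariate (0.022), and AT5G37670 did so in the interaction with an offset of 12 (0.094), ranging from -0.23 to 0.032 with 1 array left out. None of these was called in either setting. The replicate block on all groups left the counts of called genes at 1, 3 and 0 for untreated, treated and interaction, and took the call of Hop2 under H2O2 (adjusted p 0.0563 in limma). The number of probe sets called between treated genotypes ranged from 55 to 544 higher and 67 to 493 lower over these settings, against 207 and 191, between untreated genotypes from 24 to 169 and 16 to 73, against 99 and 68, and for the interaction from 0 to 4 and 3 to 44, against 0 and 15. Under H2O2 in wildtype it was 859 to 1338 higher and 794 to 1774 lower, against 1309 and 1689, and in Zat12 923 to 1208 and 825 to 1545, against 1114 and 1244. Low signal limits the untreated values: the means of 4 of the 5 genes were below 28.1 there.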
